A study of Mus musculus with 8 samples.

Results

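The genes described here are the receptors for adenosine and the proteins that make, remove and carry it in the embryonic mouse cortex: Adora1, Adora2a, Adora2b, Adora3, Adk, Ada, Nt5e and Slc29a1. They were taken by symbol from the read counts of 8 libraries, and all 8 symbols were found among the 23284 genes counted. The set was selected on the measured level of Adora1, which was higher in the libraries labelled ErbB4 KO than in those labelled WT, so the differences of these genes between genotypes are given as a description, with intervals, and no finding rests on a test of them.

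RNA was sequenced from the dorsal cortex of embryos at E15.5, with the meninges and the ganglionic eminences removed, in 4 libraries labelled WT and 4 labelled ErbB4 KO, to ask which transcripts differ in cortex that lacks ErbB4, a receptor tyrosine kinase for neuregulins. The strain was given as C57BL/6 for all samples and the KO genotype as ErbB4 -/-. ErbB4-/- mice die in midgestation from a heart defect, and this line was kept alive by an ErbB4 transgene expressed in the heart under the alpha-MHC promoter. The genotypes were bred as separate homozygous colonies and the labels gave neither litter nor sex, so that genotype and colony cannot be told apart, and the p-values below measure only the spread between these libraries.

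Adenosine is formed outside cells when ectonucleotidases strip the phosphates from released ATP, the last step being made by the enzyme that Nt5e encodes. It acts on G protein-coupled receptors. Adora1 and Adora3 couple to inhibitory G proteins, which lower cyclic AMP and, through their beta-gamma subunits, open potassium channels, whereas Adora2a and Adora2b couple to stimulatory G proteins, which raise it. Adenosine then enters cells through equilibrative transporters such as Slc29a1 and is phosphorylated to AMP by adenosine kinase (Adk) or deaminated to inosine by adenosine deaminase (Ada). In the mature brain Adora1 dampens transmitter release at excitatory synapses, Adora2a is best known from striatal neurons, and adenosine kinase keeps extracellular adenosine low.

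The libraries held 28205703 to 48871480 reads in genes. Erbb4 itself was not lower in the libraries labelled KO, with 18.3 ± 6.81 CPM (read counts scaled to the library total; SD, n = 4) in WT and 22.4 ± 1.92 in KO, and the libraries are therefore called by their labels throughout. Xist, the transcript of the inactive X chromosome, stood at 983 to 1690 CPM in WT replicates 1 to 3 and at 3.47 in WT replicate 4, against 2.70 to 3.82 in the KO libraries. The Y-linked Ddx3y gave the opposite picture, with 0.257 to 0.495 CPM in WT replicates 1 to 3, 76.4 in WT replicate 4 and 78.7 to 80.9 in KO. Apart from WT replicate 4, genotype and sex therefore cannot be told apart in these libraries, and the values for KO against WT hold both. WT replicate 1 stood apart from all others: across 14392 genes its deviation from the mean of the libraries followed transcript length with a Spearman rho of -0.579, against 0.038 to 0.223 in the other 7. In KO replicate 3 the summed level of choroid plexus genes was 633 CPM, against 3.39 to 15.3 in the other 7 libraries. Values without WT replicate 1 or KO replicate 3 are given below beside some of the genes whose fitted values moved.

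The start regions of the receptor genes showed a contrast that their levels can be set beside. RefSeq windows of 300 bases, from 250 bases before to 50 after the start of transcription on build GRCm38.p6, were found for 7 of the 8 genes; no window was matched for Adora2a. The windows of the most and the least abundant receptor, Adora1 and Adora3, are printed 5′ to 3′ on the strand of the gene, with each CpG dinucleotide in capitals. The first Adora1 window lies at chr1:134235408-134235707 and the second at chr1:134234807-134235106, both on the minus strand, and the Adora3 window lies at chr3:105904171-105904470 on the plus strand.
Adora1 first window: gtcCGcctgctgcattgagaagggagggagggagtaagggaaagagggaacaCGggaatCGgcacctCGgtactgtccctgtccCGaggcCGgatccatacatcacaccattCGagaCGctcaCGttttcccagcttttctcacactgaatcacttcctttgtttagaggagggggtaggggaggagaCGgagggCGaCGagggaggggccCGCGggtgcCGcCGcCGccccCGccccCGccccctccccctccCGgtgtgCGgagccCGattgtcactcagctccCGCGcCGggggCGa
Adora1 second window: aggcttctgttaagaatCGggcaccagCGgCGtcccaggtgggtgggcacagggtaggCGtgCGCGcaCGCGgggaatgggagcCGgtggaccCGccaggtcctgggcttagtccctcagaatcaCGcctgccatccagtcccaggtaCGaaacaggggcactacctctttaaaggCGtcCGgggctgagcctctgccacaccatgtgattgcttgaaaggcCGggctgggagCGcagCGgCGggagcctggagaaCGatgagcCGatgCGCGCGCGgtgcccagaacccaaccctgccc
Adora3 window: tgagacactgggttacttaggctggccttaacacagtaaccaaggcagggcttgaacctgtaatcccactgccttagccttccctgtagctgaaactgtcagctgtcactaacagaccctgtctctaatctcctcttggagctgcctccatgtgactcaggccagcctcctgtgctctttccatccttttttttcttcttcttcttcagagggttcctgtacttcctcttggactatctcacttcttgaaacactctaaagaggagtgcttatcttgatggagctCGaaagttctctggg

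The Adora1 windows held 26 and 24 CpG at a GC content of 66.0% each, and the Adora3 window held 1 CpG at 48.3% GC. Over the 32851 windows of all genes the median was 7 CpG and 52.7% GC, so that the Adora1 windows stood at percentiles 84.5 and 81.6 for CpG and the Adora3 window at 14.1. The letters GGGCGG, the GC box, searched on both strands, occurred 3 times in the first Adora1 window and 0 times in the second and in that of Adora3; 35.7% of all windows held this motif. GAGGAAGT, the core bound by the myeloid factor Spi1, was found once in the Adora3 window and in 3.2% of all windows. Adora2b, which was expressed at a very low level, had 27 CpG and 6 GC boxes, so CpG content did not follow the level among the receptors. These matches describe the letters of the windows only.

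Adora1 was the most abundant adenosine receptor and the gene on whose level the set was chosen. It lies on chromosome 1 at chr1:136095800-136132008 (build NCBIM37, minus strand), 66.941 Mb from Erbb4 on the same chromosome. Its level was 39.0, 45.5, 39.5 and 44.2 CPM in WT replicates 1 to 4 and 53.5, 55.6, 53.1 and 51.1 CPM in KO replicates 1 to 4, from 1093 to 2634 reads per library. All KO libraries lay above all WT libraries, the gap between the lowest KO and the highest WT library being 5.58 CPM, or 12.3%. The means were 42.1 ± 3.29 in WT and 53.3 ± 1.85 in KO (SD, n = 4), which edgeR fitted as a log2 fold change of 0.34 (SE 0.068, 95% interval 0.19 to 0.49) or 1.27-fold (1.14 to 1.40). Such a separation with KO above was seen in 1.86% of the 14696 genes tested, out of 3.34% that separated in either direction, and since Adora1 was picked for this difference nothing is read from the count. The fitted value was 0.31 without WT replicate 1 and 0.38 without WT replicate 2, the ends of the range on leaving out each library. It was 0.28 with Xist as a covariate (95% interval 0.03 to 0.53) and 0.28 after the length trend was removed (0.15 to 0.41). Set against WT replicate 4 alone, which shared the Xist and Ddx3y pattern of the KO libraries, the KO mean was 1.21 times as high. In bulk tissue, more cells that express a gene and more RNA per cell cannot be told apart.

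Adora2a was the second receptor with a clear signal. Its level was 16.1, 13.7, 12 and 11.9 CPM in WT replicates 1 to 4 and 13.3, 14.1, 14 and 12.7 CPM in KO replicates 1 to 4. The groups overlapped, and the highest library was WT replicate 1. The means were 13.4 ± 1.96 and 13.5 ± 0.638 CPM, with a log2 fold change of 0.01 (SE 0.10, 95% interval -0.22 to 0.24). Without WT replicate 1 it was 0.11. In the mature brain Adora2a marks striatal projection neurons, and a list of 9 tested striatal genes summed to 132 to 187 CPM in WT and 158 to 165 in KO.

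Adora2b and Adora3 were close to the limit of detection. Adora2b, a receptor of low affinity for adenosine, was counted in 9, 4, 25 and 8 reads in WT replicates 1 to 4 and in 20, 9, 15 and 14 reads in KO replicates 1 to 4. These are 0.128 to 0.651 CPM in WT and 0.258 to 0.445 in KO, with the groups overlapping and a log2 fold change of 0.13 (SE 0.44, 95% interval -0.82 to 1.09). WT replicate 3 held the most reads of all 8 libraries, and without it the value was 0.73, whereas it was -0.12 without WT replicate 2. Adora3 was counted in 5, 1, 9 and 11 reads in WT and in 8, 10, 21 and 3 reads in KO, and it was the only one of the 8 genes that did not pass the filter on low counts. Its highest library was KO replicate 3 and its lowest WT replicate 2, and the groups overlapped. In a fit without the filter its log2 fold change was 0.48 (SE 0.62, 95% interval -0.84 to 1.81). Adora3 passed the filter on leaving out WT replicate 1, 2 or 3, or KO replicate 1 or 4. In those filtered fits its log2 fold change ran from 0.15 without WT replicate 2 to 0.72 without KO replicate 4. These intervals hold both no change and the fitted value of Adora1. The coefficient of variation of Adora2b was 68.3% in WT and 21.6% in KO, against 29.5% and 26.3% from counting alone, and that of Adora3 was 62.6% and 72.0%, against 39.2% and 30.9%.

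Counted together, the receptors gave 1559 to 3318 reads per library, of which Adora1 took most. Its share was 70.1%, 76.7%, 75.4% and 78.0% in WT replicates 1 to 4 and 79.4%, 79.2%, 78.0% and 79.4% in KO replicates 1 to 4. The reads of the inhibitory receptor Adora1 outnumbered those of the stimulatory receptor Adora2a by 2.42, 3.32, 3.28 and 3.70 times in WT, and by 4.02, 3.95, 3.78 and 4.01 times in KO. WT replicate 1 was the lowest by both measures, while WT replicate 4 was nearest to the KO libraries. Both measures contain Adora1, which was chosen for its higher level in KO, so nothing is read from their difference between the labels. The reads were not divided by gene length here. Per kilobase of exon Adora1 exceeded Adora2a by 1.54 times over the 8 libraries.

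**Figure D1:**
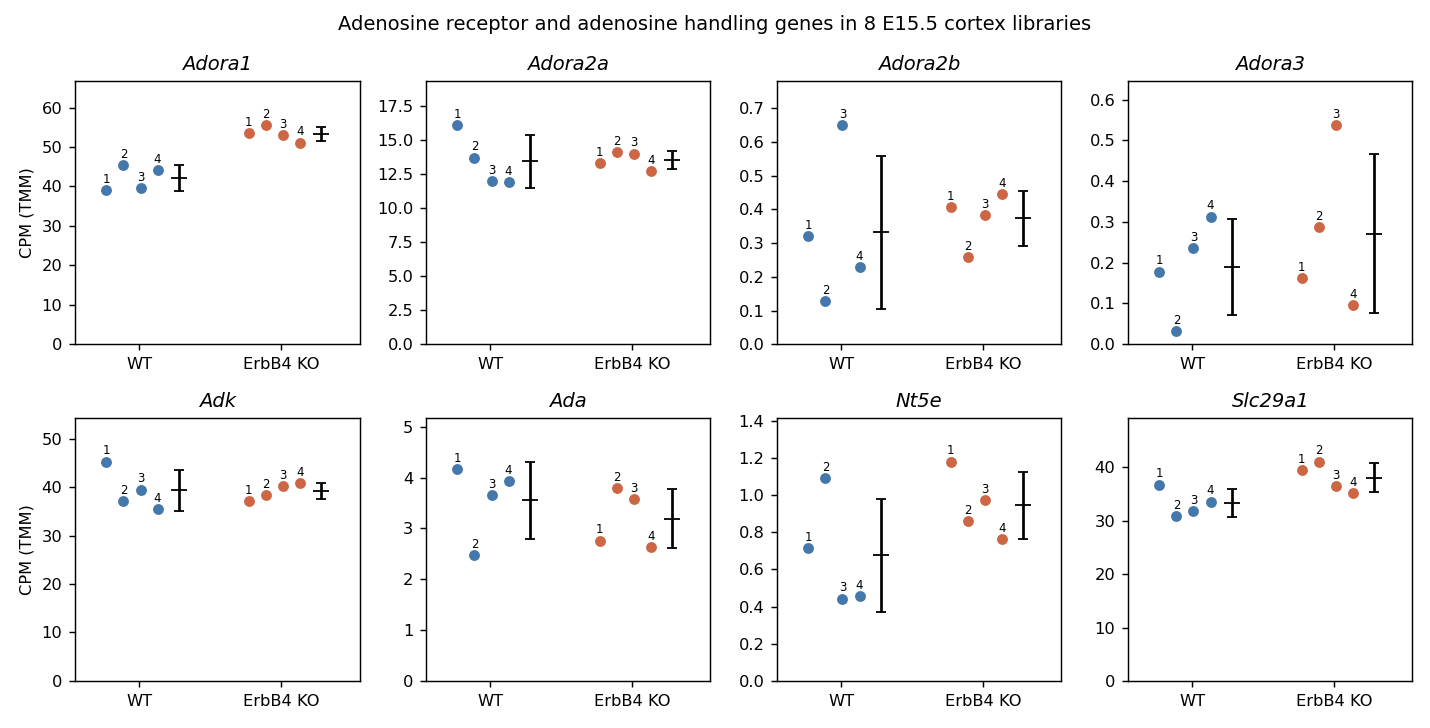
Level of each of the 8 genes in each library, in CPM; each point is a library and the bars are group means with SD (n = 4 per label). The KO points lie above the WT points only for Adora1, at 51.1 to 55.6 against 39.0 to 45.5 CPM.

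Of the enzymes, adenosine kinase was by far the most abundant. Adk was measured at 45.3, 37.2, 39.5 and 35.5 CPM in WT replicates 1 to 4 and at 37.2, 38.4, 40.3 and 40.8 CPM in KO replicates 1 to 4. The groups overlapped, with WT replicate 1 the highest of all libraries. The means were 39.4 ± 4.28 and 39.2 ± 1.66 CPM, with a log2 fold change of -0.01 (SE 0.08, 95% interval -0.18 to 0.17). With Xist as a covariate it was 0.13 (95% interval -0.14 to 0.41).

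Ada, the deaminase, was present at 4.17, 2.47, 3.65 and 3.93 CPM in WT and at 2.76, 3.79, 3.58 and 2.64 CPM in KO, from 77 to 140 reads. The lowest library was WT replicate 2 and the highest WT replicate 1, so that the WT range enclosed that of KO. The log2 fold change was -0.16 (SE 0.19, 95% interval -0.57 to 0.26); it was -0.29 without WT replicate 2, -0.07 without WT replicate 1 and -0.32 with Xist as a covariate. Nt5e, the ecto-5'-nucleotidase that forms extracellular adenosine from AMP, was present at 0.713, 1.09, 0.443 and 0.456 CPM in WT and at 1.18, 0.861, 0.973 and 0.762 CPM in KO, from 16 to 58 reads. Only WT replicate 2 reached into the KO range. The log2 fold change was 0.51 (SE 0.31, 95% interval -0.16 to 1.19), and it ranged from 0.35 without WT replicate 3 to 0.84 without WT replicate 2, where the interval (0.20 to 1.49) did not hold 0. With Xist as a covariate it was 1.03 (95% interval -0.15 to 2.21).

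Slc29a1, the equilibrative nucleoside transporter that moves adenosine across the plasma membrane, was measured at 36.8, 30.9, 31.8 and 33.6 CPM in WT replicates 1 to 4 and at 39.5, 41.1, 36.5 and 35.2 CPM in KO replicates 1 to 4. KO replicates 3 and 4 lay below WT replicate 1, and all KO libraries lay above the other 3 WT libraries. The means were 33.2 ± 2.61 and 38.1 ± 2.69 CPM, with a log2 fold change of 0.20 (SE 0.077, 95% interval 0.03 to 0.37), or 1.15-fold (1.02 to 1.29). Without WT replicate 1 the value was 0.25 (95% interval 0.10 to 0.39). The interval held 0 with Xist as a covariate (0.17, -0.12 to 0.45) and without WT replicate 2, WT replicate 3, KO replicate 1 or KO replicate 2, the lowest of these values being 0.16. At an adjusted p of 0.05 over all genes, edgeR called 0 of the 7 that passed its filter, and 0.0272% of all genes, 0.0068% being higher and 0.0204% lower in KO, while DESeq2 called 1 of 8, Adora1, and 0.138% of all genes, and limma-voom called 0 of 7, and 0.0272% of all genes. Because the set was chosen on this contrast, nothing is read from these counts.

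**Figure D2:**
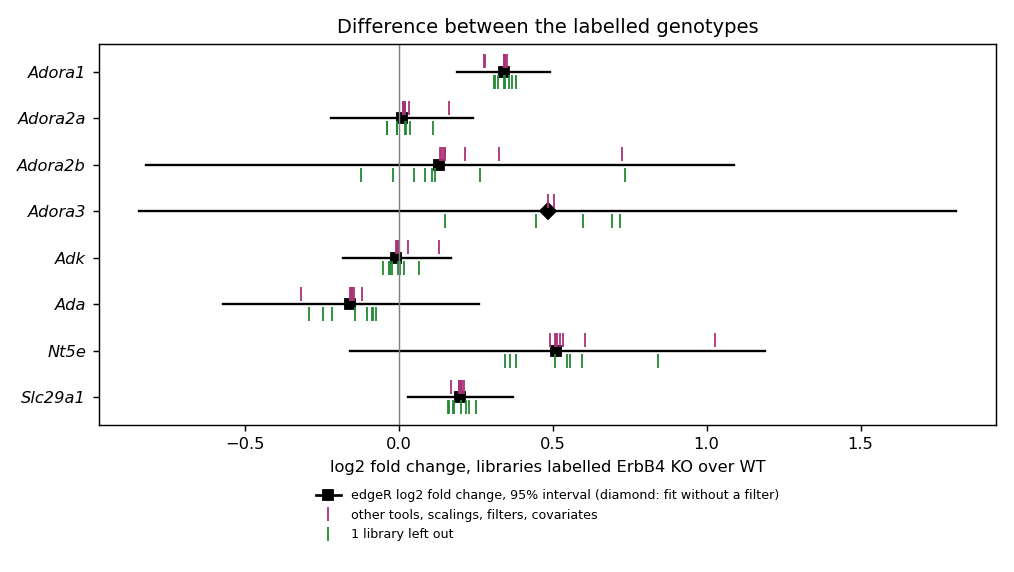
Fitted log2 fold change of each gene, libraries labelled KO against WT; squares are the edgeR fit on all 8 libraries with 95% intervals (a diamond for Adora3, fitted without the filter), marks above are other tools and settings and marks below leave out each library in turn. The interval of Adora1 runs from 0.19 to 0.49 and that of Slc29a1 from 0.03 to 0.37, while those of Adora2a and Adk are centred at 0.01 and -0.01.

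The spread between libraries is given as the coefficient of variation, whose difference between the labels was not tested. For Adora1 it was 7.82% over the WT libraries and 3.48% over the KO libraries, against 2.68% and 2.20% from counting alone. For Slc29a1 it was 7.84% and 7.05%, and for Ada 21.2% and 18.2%. Without WT replicate 1 the WT value was 4.32% for Slc29a1, below its KO value, 23.1% for Ada and 7.3% for Adora1. For Adk it was 10.9% and 4.24%, and for Adora2a 14.5% and 4.71%, but without WT replicate 1 the WT value was 5.39% for Adk and 7.87% for Adora2a. WT replicate 1 held the highest WT value of Adk, Adora2a, Ada and Slc29a1 and the lowest of Adora1.

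Levels were compared between genes as CPM per kilobase of exon. Adk was the highest at 23.2 ± 2.52 in WT and 23.1 ± 0.978 in KO. Slc29a1 followed at 8.29 ± 0.65 and 9.50 ± 0.67, and Adora1 at 7.27 ± 0.568 and 9.22 ± 0.32. Adora2a stood at 5.31 ± 0.772 and 5.34 ± 0.252, and Ada at 1.78 ± 0.377 and 1.59 ± 0.289. Nt5e at 0.189 ± 0.0847 and 0.264 ± 0.0497, Adora2b at 0.180 ± 0.123 and 0.202 ± 0.0437, and Adora3 at 0.0571 ± 0.0358 and 0.0815 ± 0.0587 closed the order. All values are means with SD of 4 libraries, WT first.

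Each gene was then tested against the next in this order over the 8 libraries with an exact two-sided sign-flip permutation test, adjusted over the 7 pairs. The order came from the same libraries, so the pairs and their directions were not fixed beforehand. The p-values therefore only describe how steady each order was over these libraries. The pairs with Adora1 also include the KO libraries, on whose Adora1 level the set was chosen. Adk exceeded Slc29a1 by 2.60 times, Adora1 exceeded Adora2a by 1.54 times, Adora2a exceeded Ada by 3.20 times, Ada exceeded Nt5e by 7.74 times and Adora2b exceeded Adora3 by 3.23 times. In each of these 5 pairs the order held in 8 of 8 libraries, with an exact adjusted p of 0.0109 (raw 0.00781, the smallest the test can give). Slc29a1 and Adora1 did not differ beyond their spread, with a ratio of 1.08, Slc29a1 being higher in 5 of 8 libraries (exact permutation, adjusted p = 0.0729). The ratios depended on the length used. With the longest transcript in place of all exons the log2 ratio of Slc29a1 to Adora1 was 0.97 (exact permutation, adjusted p = 0.0109), and that of Adk to Slc29a1 was 0.53 in place of 1.38. That of Adora2b to Adora3 was 1.21 in place of 1.69, with Adora2b higher in 6 of 8 libraries (exact permutation, adjusted p = 0.0456). Nt5e and Adora2b were likewise not separated, with a ratio of 1.23 and Nt5e higher in 6 of 8 libraries (exact permutation, adjusted p = 0.445). The length of Adora3 rests on 2 annotated entries under its symbol, which were merged.

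**Figure D3:**
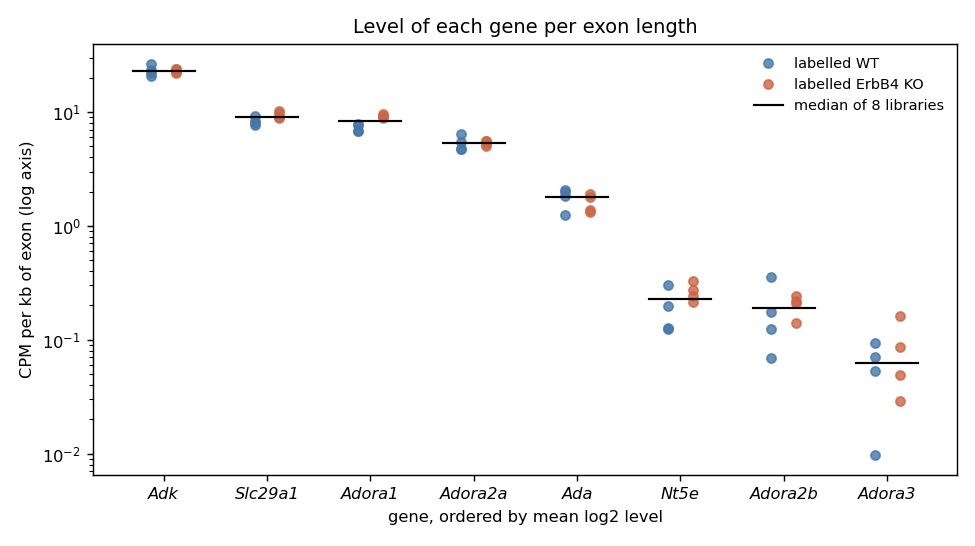
Level of each gene in CPM per kilobase of exon, on a log axis, in each of the 8 libraries by label, ordered by level, with a line at the median. Adk is highest at about 23, Slc29a1 and Adora1 lie beside each other, and Adora3 is lowest, at 0.0571 in WT and 0.0815 in KO.

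Since the libraries did not keep the strand, reads from genes that overlap on opposite strands cannot be told apart. Adora1 shares 661 of its 5785 exon bases with Mybph, a muscle gene, which had 0 to 10 reads per library. Slc29a1 shares 275 bases with Gm17080.

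Other genes of adenosine handling, which include the further ectonucleotidases, nucleotidases, deaminases, nucleoside transporters and pannexin channels, showed no gene past the threshold. Of 36 listed genes 27 were tested, and 0 rose and 0 fell with edgeR at an adjusted p of 0.05, with DESeq2 and with limma-voom alike, the lowest adjusted p with edgeR being 0.81. At an unadjusted p of 0.05 edgeR called 0 of the 27, against 5.53% of all genes tested, limma-voom called 0 against 5.72%, and DESeq2, which tested 30 of the list, called 1 against 5.73%. Of the 27, 18 had a positive log2 fold change, with a median of 0.05, against -0.0022 over all genes tested, of which 49.2% were positive. The median was 0.02 without KO replicate 1, 0.03 without WT replicate 4 and 0.02 with the length trend removed. It was 0.07 without WT replicate 2 and 0.08 with Xist as a covariate, where 21 of 27 were positive. Without WT replicate 1, 23 of 28 were positive. The unadjusted count was 2 without KO replicate 4 (7.73% of all genes). Entpd5, an endoplasmic reticulum nucleotidase, was the only member of this list whose libraries did not overlap, at 17.7 to 18.8 CPM in WT and 19.3 to 21.1 in KO, where 1.86% of all genes tested had KO above WT in this way (log2 fold change 0.14, SE 0.068, edgeR adjusted p = 0.81). The ecto-enzymes Enpp1 (0.62, SE 0.35) and Entpd2 (0.37, SE 0.24) had the highest fitted values, and the purine nucleoside phosphorylase Pnp (-0.18, SE 0.13) and the peptidase Dpp4 (-0.14, SE 0.27) the lowest. Without WT replicate 1 Enpp1 was at 0.39, Pnp at -0.07 and Dpp4 at 0.04, and with Xist as a covariate Entpd2 was at 0.78. Enpp2, which makes lysophosphatidic acid and is also known from the choroid plexus, was at 0.37 (SE 0.26), and at -0.05 without KO replicate 3.

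The partners through which the receptors act were all expressed. This list of 24 genes holds G protein subunits, adenylyl cyclases, potassium and calcium channels, phosphodiesterases and Rgs4. All 24 were tested, and 0 rose and 0 fell at an adjusted p of 0.05 with any of the 3 tools; edgeR, DESeq2 and limma-voom each called 4 at an unadjusted p of 0.05, where 5.53%, 5.73% and 5.72% of all genes were called. With edgeR this count was 0 with Xist as a covariate, where 1.68% of all genes were called, 1 without KO replicate 2 (2.90%) or KO replicate 3 (3.43%), 2 without KO replicate 1 (3.63%) and 6 without KO replicate 4 (7.73%). Of the 24, 18 had a positive log2 fold change and the median was 0.10 with edgeR. The median was 0.04 without WT replicate 1, and 0.03 after the length trend was removed, where 14 of the 24 were positive. It was 0.06 with Xist as a covariate, 0.06 without KO replicate 2 and 0.15 without WT replicate 2. In 3 of the 24, Gng2, Kcnj3 and Adcy9, all KO libraries lay above WT, as in 1.86% of all genes tested. Gng2, a gamma subunit, was the most abundant of these, at 1120 ± 38.7 CPM in WT and 1230 ± 51.2 in KO (0.14, SE 0.053). The potassium channel Kcnj3, which opens on beta-gamma subunits, was measured at 8.09, 11.5, 11.7 and 11.9 CPM in WT and 12.6, 14.6, 15.2 and 12 in KO. Its log2 fold change was 0.33 (SE 0.13, edgeR adjusted p = 0.81) and 0.22 without WT replicate 1. The adenylyl cyclase Adcy9 went from 0.28 (SE 0.16) to 0.12 without that library. Adcy1, a calcium-stimulated cyclase of cortical neurons, had 156 ± 29.9 CPM in WT and 212 ± 20.4 in KO (0.44, SE 0.12, edgeR adjusted p = 0.81), and 0.32 without WT replicate 1. Gnai2 (-0.07, SE 0.062), an inhibitory alpha subunit, and Rgs4 (-0.13, SE 0.15), which speeds the turning off of G proteins, were the lowest; without WT replicate 1 they were at -0.02 and -0.24.

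Receptors for ATP and UTP, the nucleotides from which extracellular adenosine derives, gave 12 tested genes of 15 listed. Again 0 rose and 0 fell at an adjusted p of 0.05 with edgeR, DESeq2 or limma-voom, 1 passed an unadjusted p of 0.05 with edgeR (5.53% of all genes), 9 were positive and the median was 0.21 with edgeR. The unadjusted count was 0 without KO replicate 1 (3.63% of all genes) or KO replicate 3 (3.43%) and with the replicate block (6.97%), and 2 without WT replicate 2 (9.40%) or KO replicate 4 (7.73%), and the median was 0.32 without KO replicate 1. P2rx7, an ATP-gated channel, was the 1 gene of the list with all KO libraries above WT (1.86% of all genes), with 1.46 to 2.29 CPM in WT and 2.30 to 3.15 in KO (0.44, SE 0.19, edgeR adjusted p = 0.81). The UDP-glucose receptor P2ry14 (0.57, SE 0.33) was the highest, and the ATP-gated channel P2rx1 (-0.81, SE 0.43) and the ADP receptor P2ry13 (-0.08, SE 0.21) the lowest. P2ry14 was at 0.32 without KO replicate 3 and at 0.82 without WT replicate 1, where P2ry13 was at 0.01 and P2rx7 at 0.32. With Xist as a covariate P2ry14 was at 1.06 and P2rx1 at -1.40. P2rx7 and P2ry13 are known from microglia, and the microglial list summed to 59.4 to 72.6 CPM in WT and 60.7 to 71.6 in KO.

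**Figure D4:**
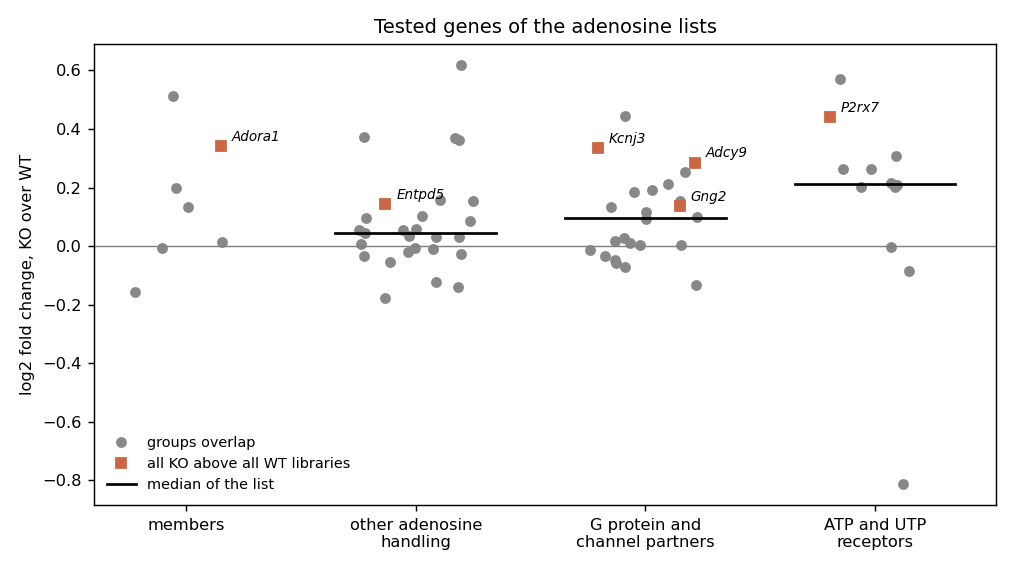
Log2 fold change of the tested genes of each list, KO against WT; each point is a gene, squares mark genes with all KO libraries above WT, and the bar is the median of each wider list. Medians are 0.05 for adenosine handling, 0.10 for G protein and channel partners and 0.21 for ATP and UTP receptors, and 0 genes passed the adjusted threshold with edgeR.

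The surroundings of Adora1 on chromosome 1 were examined to see whether other genes nearby differed. Within 1 Mb there were 35 genes, of which 23 were tested; 0 passed an adjusted p of 0.05 with edgeR and 2, Ube2t and Klhl12, passed an unadjusted p of 0.05, against 5.53% of all genes. Of the 23, 8 had a positive log2 fold change and the median was -0.04. The nearest tested gene, Chi3l1 at 9.0 kb from the end of Adora1, was fitted at -0.09 on the log2 scale (SE 0.23), and Ppfia4 at 61.4 kb had -0.04 (SE 0.11). Ube2t, a ubiquitin-conjugating enzyme of DNA repair, was the gene with the lowest value, with 10.3 ± 2.41 CPM in WT and 6.07 ± 1.08 in KO (-0.75, SE 0.18, edgeR adjusted p = 0.589), all KO libraries lying below WT, as in 1.48% of all genes tested. It was fitted at -0.76 (SE 0.18) with DESeq2 and at -0.74 (SE 0.18) with limma-voom. Calls by these other tools were not counted for the neighbours, and over all genes DESeq2 called 0.138% against 0.0272% with edgeR. Fmod, a matrix proteoglycan, had the highest value (1.07, SE 0.59), and its level was highest in KO replicate 3, without which it was 0.07. Besides Adora1 only the calcium pump Atp2b4 had all KO libraries above WT, as 1.86% of all genes did (135 ± 15.4 and 148 ± 3.75 CPM; 0.13, SE 0.076, and 0.05 without WT replicate 1).

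**Figure D5:**
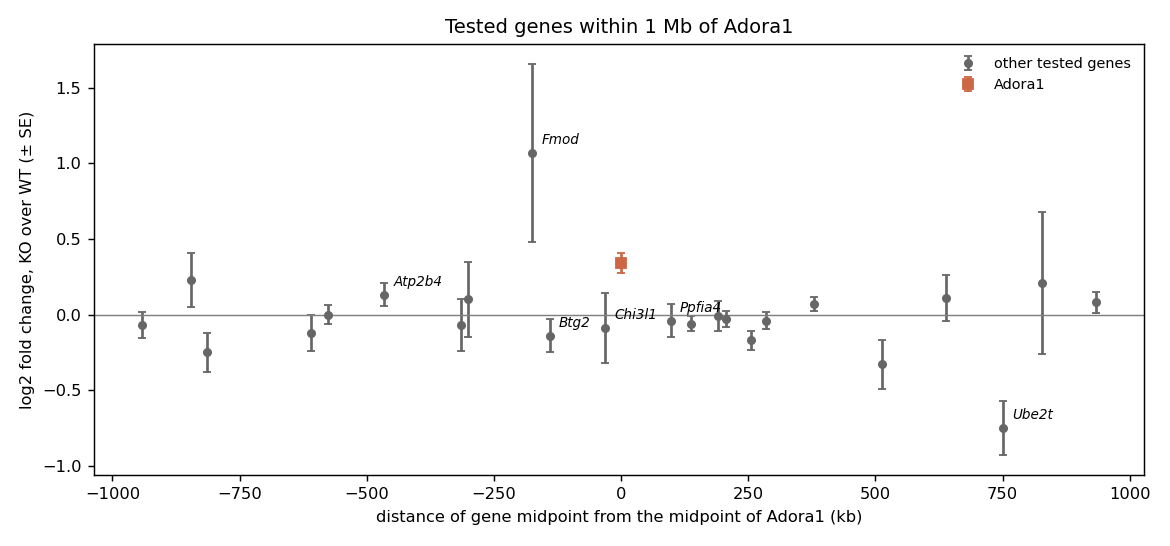
Log2 fold change, KO against WT, of the 23 tested genes within 1 Mb of Adora1 and of Adora1 itself, against the distance in kb between gene midpoints; bars are standard errors. Adora1 stands at 0.34, the neighbours have a median of -0.04, and Ube2t is lowest at -0.75.

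The genes whose pattern over the 8 libraries was most like that of Adora1 were found by Pearson correlation of log2 CPM among 11326 genes with at least 5 CPM. They were Pcdhga2 (r = 0.972), Scamp1 (0.964), Gm2a (0.956), Shisa9 (0.947) and Prkce (0.946), and 41 genes had r above 0.9. With the mean of each label removed, r was 0.941, 0.766, 0.947, 0.884 and 0.820 in the same order. Shisa9 accompanies AMPA receptors, Prkce is a protein kinase C, Scamp1 is a membrane protein of secretory vesicles and Gm2a is a lysosomal cofactor. Pcdhga2 belongs to a protocadherin cluster with shared exons, and its counts are uncertain for that reason. All these correlations are over the same 8 libraries, of which WT replicate 1 differs by its length trend, and they are a description.

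Marker lists of the cells that the tissue could hold were read beside these values. The dorsal cortex list was high in all libraries, at 3820 to 4350 CPM in WT and 3710 to 4150 in KO, with 10 of 10 genes tested. The list of ganglionic eminence and interneuron genes summed to 573 to 751 and 549 to 751 CPM, and the endothelial list to 178 to 185 and 180 to 192 CPM. The meningeal list summed to 14.1 to 17.8 CPM in WT and 14 to 29.3 in KO, the highest being KO replicate 3. The red blood cell list summed to 33.2 to 58.1 in WT and 23.2 to 36.6 CPM in KO, with Hba-a1, Hba-a2 and Hbb-b2 at 0 in all libraries. Of its 5 tested genes 2 had a positive log2 fold change, Alas2 (0.21, SE 0.13) and Slc4a1 (0.11, SE 0.23). Hbb-y (-1.72, SE 0.45) and Hba-x (-1.23, SE 0.31) were the lowest. The median of this list was -0.15, but 0.14 with Xist as a covariate. It was 0.09 without KO replicate 4 and 0.02 without WT replicate 1. No gene of these lists passed the adjusted threshold with edgeR. At an unadjusted p of 0.05 edgeR called 2 of 10 dorsal cortex, 1 of 10 ganglionic eminence and interneuron and 1 of 10 endothelial genes. It also called 1 of 7 meningeal, 2 of 5 red blood cell and 4 of 5 choroid plexus genes, against 5.53% of all genes. With Xist as a covariate this count was 1 in the endothelial and meningeal lists and 0 in the others, where 1.68% of all genes were called. Without KO replicate 3 it was 0 for the choroid plexus list. The choroid plexus list was high in KO replicate 3 alone, and without that library the log2 fold change of Adora1 was 0.34. The part of the red blood cell genes in the values above was not tested.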

How the data were processed

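Dorsal cortex RNA was sequenced by the authors as non-stranded polyA libraries (single-end, 50 nt, HiSeq), aligned to mm9 with HISAT and counted per gene with HTSeq-count; versions, counting mode and annotation are not given in the sources used here. The deposited files hold raw counts for 8 libraries. The authors' table of a DESeq2 comparison (fold changes and p-values) was not used. Samples were grouped by their labels.

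Counts were fitted with edgeR 4.0.16 in R 4.3.3 (TMM, filterByExpr with a minimum count of 10, quasi-likelihood test, KO against WT, Benjamini-Hochberg over 14696 genes). CPM used library totals (28205703 to 48871480 reads) multiplied by TMM factors of 0.9942 to 1.0082, with intervals from the fit. Exon lengths and positions came from the NCBIM37 annotation and start windows from RefSeq. Alternatives were DESeq2 1.42.0, limma-voom (limma 3.58.1), other scalings and filters, a replicate block, Xist as a covariate, removal of the length trend and leaving out each library. Scripts were tested on simulated data.

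The 8 genes and all lists were chosen with earlier results of these data known. Named genes were the 8 members; in each list the genes past the threshold or without overlap between groups, and the 2 highest and 2 lowest tested; the genes within 1 Mb of Adora1; and the 5 most correlated with Adora1. Enpp2 was added after its values were seen.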

Additional observations from a re-analysis of the deposited data

Results flagged for a closer look

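In each label's 4 libraries, the highest or lowest library was compared with the next one by Dixon's ratio, the gap to the nearest library divided by the range, over 80 genes and 160 groups; 12 groups passed the critical value, where chance gives about 1 in 20. None of the 8 adenosine genes was among them.

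KO replicate 3 was the highest library for the choroid plexus genes Ttr (572 CPM against 7.87 in the next library, ratio 0.988), Folr1 (9.09 against 0.476, ratio 0.969) and Clic6 (25.9 against 1.93, ratio 0.956). It was also the highest for the matrix genes Ogn (7.58 against 1.66, ratio 0.884), Fmod (1.89 against 0.459, ratio 0.875) and Col1a2 (6.55 against 3.08, ratio 0.863).

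WT replicate 1 was the lowest for Atp2b4 (112 CPM against 142, ratio 0.949), Kcnj3 (8.09 against 11.5, ratio 0.887) and Ppp1r12b (22.3 against 36.7, ratio 0.861). Atp2b4 and Kcnj3 are 2 of the genes above whose KO libraries all lay above WT.

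KO replicate 1 was the highest for Mybph (0.203 CPM against 0.0318, ratio 0.965), Sst (93.4 against 84.4, ratio 0.958) and Dcn (3.47 against 2.73, ratio 0.915). Mybph, which overlaps Adora1 on the other strand, rested on 10 reads there, against 2634 reads of Adora1 in the same library.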

How the results depend on the processing

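The number of genes called over the whole table was 4 with edgeR and 23, Adora1 among them, with DESeq2; it was 1 with RLE scaling, 1 with upper-quartile scaling, 1 with Xist as a covariate and 2 with the length trend removed. Leaving out each library gave 1 to 13 genes: 13 without WT replicate 4, 6 without WT replicate 1, 2 without WT replicate 2 or KO replicate 4, and 1 without any other. The cause was not tested. With Xist as a covariate the log2 fold change of Nt5e was 1.03 and that of Adk 0.13; Slc29a1 exceeded Adora1 by 0.97 (log2) with the longest transcript. Adora1 stayed between 0.28 and 0.38 in all settings.

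The replicate block gave 1 called gene, and 0.34 for Adora1. Deviations of libraries with the same number correlated at 0.024 to 0.135, and only replicates 1 and 2 correlated best with their own number. The labels give no pairing beyond the number, and these correlations cannot show whether a batch was shared.

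Adora2b, Adora3 and Nt5e rest on 1 to 58 reads per library, which limits what can be said of them.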
